A study of Arabidopsis with 36 samples.

Results

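Roots of the HY5 mutant hy5-215 were compared with roots of the wild type Col-0 after growth in warmth, to find which transcripts depend on HY5 in a warm root. The comparison takes 6 of the 36 libraries of the series: the root libraries at 28 °C, 3 of hy5-215 and 3 of Col-0, chosen by genotype, organ and temperature and not by any measured value. Seedlings of both genotypes grew for 4 days at 21 °C and for 5 more days at 28 °C, and the roots were then cut from the shoots. Each root replicate was RNA from a pool of about 50 roots, so the spread between replicates is that between pools, and fewer cells of a type cannot be told apart from less RNA per cell. The hy5-215 allele was a single mutant line in the Col-0 background. The other groups used beside it were roots of both genotypes kept at 21 °C for all 9 days, shoots of both genotypes at 28 °C, and roots at 28 °C of chl1.5, a loss of function line of the nitrate transporter gene NRT1.1.

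HY5 is a bZIP transcription factor that accumulates in light, where the COP1-SPA ubiquitin ligase no longer removes it, and it binds G-box and related DNA elements of many genes. In seedlings it is known for switching on flavonoid and photosynthesis genes and for restraining hypocotyl growth, and it also acts in roots, where it takes part in light, nutrient and temperature responses. NRT1.1 (AT1G12110, on chromosome 1) is a nitrate transporter of the plasma membrane that also senses nitrate, and its promoter was tested for HY5 binding in the same study. The probe that was designed from that promoter is shown because it holds the G-box-like CACATG, in capitals here. In the study's assay HY5 bound this element in vitro, and the mutated version served as an unlabelled competitor. The paper could not fully exclude that this binding is absent in the root.
pNRT1.1 probe: gagtcaCACATGtgtcactt
pNRT1.1 mutated probe: gagtcaCCCATGtgtcactt
Both probes have 20 bases and are written 5′ to 3′, with the element at bases 7 to 12 counted from the 5′ end. The mutated probe carries the substitution A8C within it.

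The 6 libraries held between 61.1 and 73.5 M reads on genes, with 61.1 to 66.3 M in Col-0 and 69.7 to 73.5 M in hy5-215, so the depth of the groups did not overlap. At these depths 1 read on a gene of 1 kilobase equals 0.0136 to 0.0164 RPKM (reads on a gene, scaled by its length in kilobases and by the depth of the library). The organ label held: the root markers, among them PYK10 at 2079 to 3024 RPKM, were all detected, and the 12 of them summed to 2441 to 3013 RPKM in Col-0 and 2706 to 3399 in hy5-215. Most of each sum came from PYK10, which shoots at 28 °C also held, at 628 to 781 RPKM. The 12 summed to 655 to 807 RPKM in those shoots. Of the 16 shoot markers 6 were high enough to be tested. The leaf genes CA1 and LHB1B1, at 771 to 846 and 765 to 1586 RPKM in shoots, did not exceed 0.0965 and 0.349 RPKM in any of the root libraries. Not all leaf genes were so low: RBCS1A and LHCB1.3 were at 189 to 252 and 112 to 168 RPKM in Col-0 roots. In those shoots they were at 11104 to 12024 and 10405 to 13600.5 RPKM. The mutant libraries were unlike each other in part of the genes. In replicate 2 of hy5-215, 29 genes lay more than 1 log2 unit from the mean of the other 2 replicates, against 2 and 12 genes in replicates 1 and 3 and 1 to 5 genes in the Col-0 libraries. Over all genes the order was another, with a median distance from the other 2 replicates of 0.064 log2 units in replicate 2 of hy5-215 and of 0.083 and 0.079 in Col-0 replicates 2 and 3, and the chi-square per degree of freedom was highest between those Col-0 libraries (27.4, against 18.3 at most within hy5-215). Of the 41 tested photosynthesis genes replicate 2 of hy5-215 was the lowest mutant library for 36, with a median of 4.57% of the Col-0 mean against 8.08% and 9.41% in replicates 1 and 3. Whether replicates 1 and 3 held some wild-type RNA, or replicate 2 differed in another way, was not tested, so the level left in the mutant is uncertain for such genes. List counts are given below without 1 replicate for several lists where they changed by over 1.5 times. For the lists of the largest changes they are also given without replicates 1 and 3. That fit keeps 1 mutant library and fewer of all genes pass in it, so for other lists only effect sizes are given from it.

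The genotypes differed in 821 genes at an adjusted p under 0.05 and a log2 fold change beyond 1 in either direction, which is 4.63% of the 17742 genes tested and is what "called" means below. Of these, 394 were higher in hy5-215 (2.22% of the genes tested) and 427 were lower (2.41%). Without the limit on the fold, 9756 genes passed (55%), 5713 of them higher (32.2%) and 4043 lower (22.8%), so more than 1 in 2 genes differed by small amounts and a list is read below against those shares. The median log2 fold change of all genes was 0.04. Fold changes are log2 differences of RPKM + 1, which understates the change of genes near 0, and many are given with their standard error after ±. The rises had a median of 1.39 and the falls one of -1.53, and 33 rises and 53 falls exceeded 3. In 393 of the 394 and 426 of the 427 the 3 libraries of one genotype did not overlap the 3 of the other, which held for 61% of all genes. The called genes were spread over the 5 chromosomes, with 4.12% to 5.48% of the tested genes of each, and within 1 Mb on each side of HY5 in the TAIR10.1 gene order 19 of 441 were called (4.31%).

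**Figure D1:**
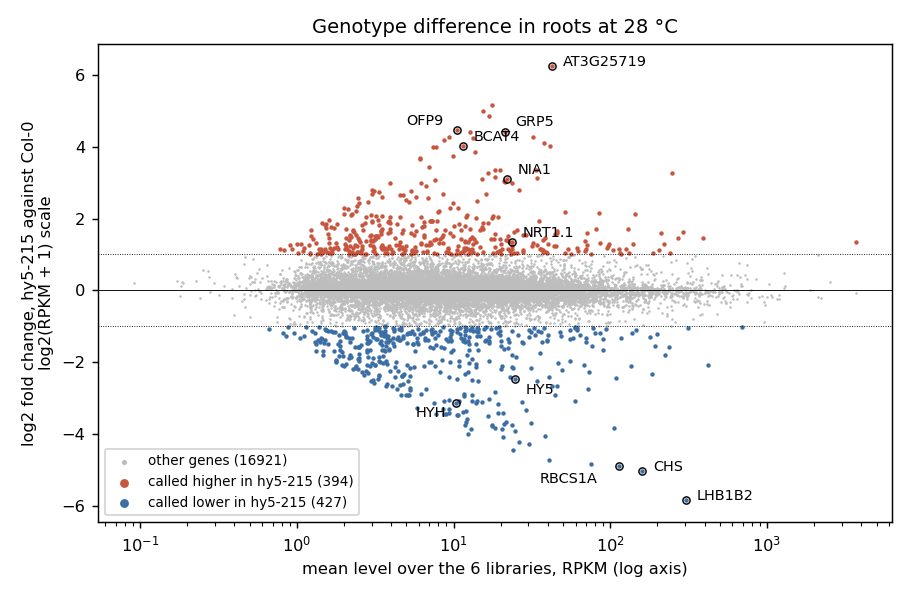
Each point is a gene, with its mean level over the 6 libraries in RPKM on a log axis and its log2 fold change of hy5-215 against Col-0 in roots at 28 °C. The 394 genes called higher and the 427 called lower are coloured, the dotted lines mark the fold limit, and LHB1B2, CHS and RBCS1A lie at the bottom right, abundant in Col-0 and low in the mutant.

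HY5 itself (AT5G11260, chromosome 5) was at 39.1, 50.3 and 38.2 RPKM in Col-0 and at 7.17, 6.34 and 6.84 RPKM in hy5-215. All 3 mutant libraries lay far below the wild type, and about 6.27-fold less transcript remained (log2 fold change -2.47 ± 0.09, adjusted p = 2.8e-12 by limma). Reads from a mutant allele are still counted, so the level of this transcript says nothing of HY5 protein. HYH, the closest homolog of HY5, went from 19.7, 19.7 and 18.5 RPKM to 1.47, 0.802 and 1.84 RPKM, a fall of -3.12 ± 0.11 with no overlap.

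Light signalling genes were lower in hy5-215 as a group. Of the 25 tested genes of HY5, the COP1-SPA complex and the photoreceptors, 20 were lower and 2 higher at an adjusted p under 0.05. Of these, 8 were called lower, and the list median was -0.30. HY5 itself, the mutated gene that defines the comparison, is counted among the 20 and the 8. RUP1, which returns the UV-B receptor UVR8 to its inactive dimer, was at 8.57, 10.9 and 8.84 RPKM in Col-0 and 0.955, 0.604 and 0.854 RPKM in hy5-215 (-2.53 ± 0.10). Its relative RUP2 went from 10.9, 11.3 and 10.97 RPKM to 3.33, 2.36 and 3.46 RPKM (-1.58 ± 0.11). The receptor UVR8 differed far less, with 18.7 to 19.05 RPKM against 15.2 to 15.4 RPKM (-0.29 ± 0.03). The SPA genes split, with SPA3 (-1.57), SPA4 (-1.43) and SPA1 (-1.005) at the large end and SPA2 at -0.11. SPA2 did not pass when any 1 of 5 of the 6 libraries was left out. COP1 differed by -0.16. Both members that were higher serve phytochrome A: FHY1 (0.33) and FHL (0.66) carry it into the nucleus. UVR8, the SPA genes, COP1, FHY1 and FHL were picked after their values were seen.

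The B-box factors, zinc finger proteins that work with HY5 or against it, were lower in part. Of 8 tested, 5 were lower and none higher, with a median of -0.43. BBX20 was at 6.38, 5.34 and 6.33 RPKM in Col-0 and 0.689, 0.790 and 0.762 RPKM in hy5-215, the only member called (-2.003 ± 0.09). BBX24, BBX25 and BBX22 differed by -0.86, -0.57 and -0.53.

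Flavonol synthesis genes were low in the mutant roots. Of 14 tested genes of flavonoid and anthocyanin synthesis, 11 were lower, 1 was higher, and 8 were called, all lower, with a median of -2.51. CHS, chalcone synthase, the first committed enzyme of the pathway, was at 328, 299 and 292 RPKM in Col-0 and at 18.6, 0.694 and 23.9 RPKM in hy5-215 (-5.03 ± 0.64, adjusted p = 6.5e-06). The Col-0 libraries were close together and the mutant ones far apart, with replicate 2 by far the lowest. F3H, flavanone 3-hydroxylase, went from 80.1, 77.5 and 78.9 RPKM to 3.49, 0.227 and 4.12 RPKM (-4.71 ± 0.33), and FLS1, flavonol synthase, from 52.1, 44.5 and 54.7 RPKM to 3.01, 0.192 and 3.43 RPKM (-4.21 ± 0.32). CHIL, a chalcone isomerase-like protein that helps chalcone synthase, differed by -3.67 ± 0.17. MYB12, the activator of the flavonol genes, was at 11.3, 13.4 and 9.61 RPKM in Col-0 and 0.316, 0.0208 and 0.548 RPKM in hy5-215 (-3.27 ± 0.15). The regulators MYBL2, GL3, EGL3 and TTG1 differed by less, at -0.58, -0.19, -0.22 and 0.15. MYBL2 did not pass without replicate 3 of hy5-215 or without replicate 2 of Col-0. GL3 did not pass without replicate 1 or replicate 2 of hy5-215 or without replicate 3 of Col-0. TTG1 was the higher member, and did not pass when the libraries were rescaled by the median of ratios. The enzyme genes that passed the filter stop at flavonols and their derivatives. DFR and LDOX, the anthocyanin steps, did not exceed 0.029 RPKM in any of the 6 libraries and could not be tested. With replicate 2 left out the median was -2.32 and the same number was called, and with replicates 1 and 3 left out together, an alternative added after the data were seen, it was -2.88 with 8 called.

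Nuclear photosynthesis genes were the most numerous among the 12 largest falls. Of 41 tested genes of the photosystems, their antennae, electron transport and Rubisco, 40 were lower and 38 were called, all lower, with a median of -2.95; LHCB1.2 was the exception, with an adjusted p of 0.14. LHB1B2, an antenna protein of photosystem II, is not one of the 41. It was at 589, 733 and 453 RPKM in Col-0 and 18.6, 1.23 and 22.9 RPKM in hy5-215, the largest fall of all genes named here (-5.84 ± 0.59). RBCS1A, a small subunit of Rubisco, went from 222, 252 and 189 RPKM to 9.15, 2.18 and 11.5 RPKM (-4.90 ± 0.35), and LHCB1.3, another antenna protein, from 160, 168 and 112 RPKM to 6.84, 0.809 and 8.12 RPKM (-4.84 ± 0.45). None of these groups overlapped, and replicate 2 was again the lowest. PETE2, a plastocyanin, stood at 48.2, 49.4 and 41.9 RPKM against 1.93, 0.0607 and 2.43 RPKM (-4.43 ± 0.30). PSAF (-4.27), PSAD-1 (-4.08) and LHCA3 (-4.05) of photosystem I and PSBP-1 of the water-splitting complex (-3.92) completed the named falls of this kind.

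The summed level of the 41 photosynthesis genes, without LHB1B2, was 1611 to 2111 RPKM in the Col-0 roots and 156 to 210 RPKM in the mutant roots. The members fell by unequal amounts: PETE1, the other plastocyanin gene, picked after its values were seen, differed by only -0.49 ± 0.10, from 3.22, 3.26 and 2.78 RPKM to 1.89, 1.85 and 1.96 RPKM. Replicate 2 was the lowest mutant library for 36 of the 41. The median was -2.83 without replicate 2 and -3.22 without replicates 1 and 3, and 38 and 39 members were called. Of the shoot markers, RBCS1A, LHCB1.3 and RBCS3B, which are also photosynthesis genes, were lower in the mutant, PDF1 and LTP1 were higher and KAN1 did not pass; the 16 summed to 314 to 437 RPKM in Col-0 roots and 49.4 to 64.9 RPKM in mutant roots, against 33589 to 34726 and 29902 to 32387 RPKM in shoots. None of the 16 was at 0 in all 6 root libraries. The leaf gene CA1 was at 0.00712 to 0.0965 RPKM in Col-0 roots and 0.0545 to 0.0901 RPKM in mutant roots, overlapping groups, while LHB1B1, an antenna gene, was at 0.0575 to 0.349 RPKM and at up to 0.0416 RPKM. The part of shoot tissue in these values was not tested.

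Chlorophyll synthesis followed with smaller falls. Of 17 tested genes 16 were lower and 8 were called, with a median of -0.67. ELIP1, an early light-induced protein, went from 38.7, 48.5 and 28.99 RPKM to 2.25, 0.679 and 2.62 RPKM (-3.85 ± 0.26), and CRD1, a cyclase of the chlorophyll ring, from 32.6, 31.8 and 29.97 RPKM to 2.23, 1.05 and 2.51 RPKM (-3.51 ± 0.15). PORB (-2.89) and CHLH (-2.76) belong to the same route. GLK2, one of the factors that switch on chloroplast genes, differed by -0.58 ± 0.06, and GLK1 was at or under 0.149 RPKM and could not be tested.

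**Figure D2:**
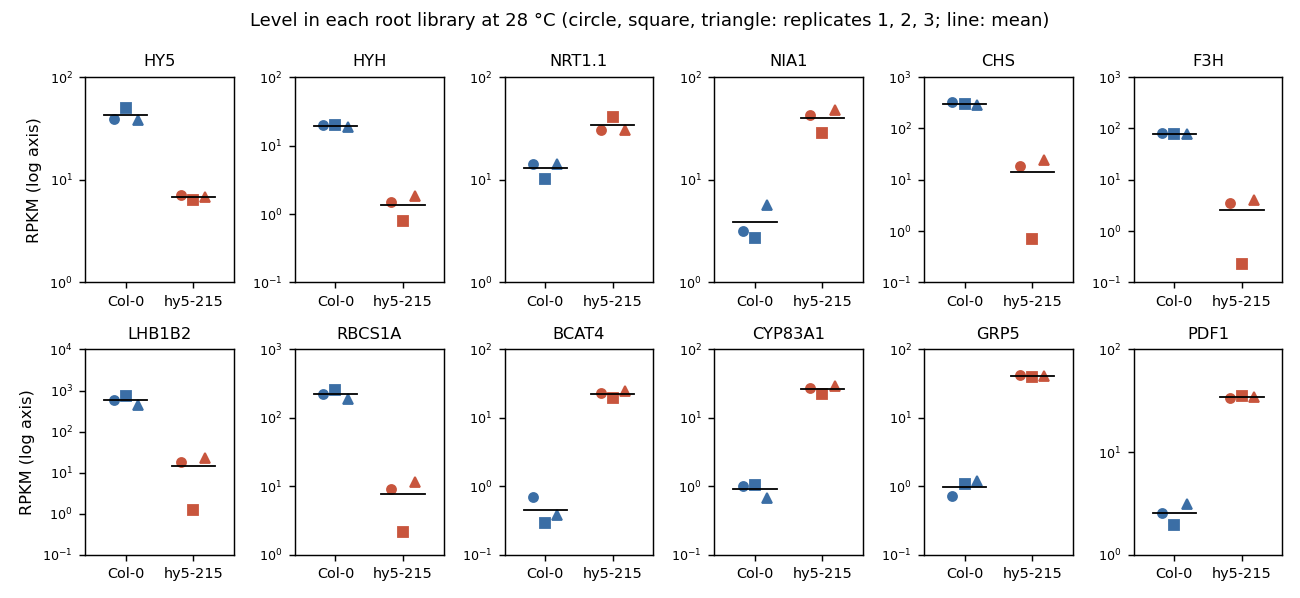
RPKM on a log axis in each of the 3 Col-0 and 3 hy5-215 root libraries at 28 °C for 12 genes, with the symbols marking replicates 1, 2 and 3 and the line the mean. The groups do not overlap in any panel, and replicate 2 of hy5-215 lies apart from the other 2 for CHS, F3H, LHB1B2 and RBCS1A but not for HY5, BCAT4 or PDF1.

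Nitrate genes were higher in the mutant. NRT1.1 was at 14.2, 10.3 and 14.3 RPKM in Col-0 and 30.9, 41.0 and 30.7 RPKM in hy5-215. Every mutant library was above every Col-0 library, by 2.65-fold on average (1.34 ± 0.12, adjusted p = 2.0e-07). Other genes of nitrate use rose with it. NIA1, a nitrate reductase, was at 3.174, 2.71 and 5.73 RPKM in Col-0 and 42.9, 28.6 and 48.1 RPKM in hy5-215 (3.09 ± 0.27, 10.3-fold), and the second reductase NIA2 at 19.8, 20.5 and 26.6 RPKM against 72.6, 63.6 and 70.3 RPKM (1.59 ± 0.13). NRT1.8, which takes nitrate back out of the xylem, went from 3.16, 2.96 and 4.55 RPKM to 25.6, 27.4 and 20.7 RPKM (2.496 ± 0.24). Of 19 tested genes of nitrate transport and reduction, 14 were higher, 1 was lower (NPF6.2, -0.79) and 7 were called, all higher, with a median of 0.46. The high-affinity transporter gene NRT2.1 was too low to be tested, at up to 0.0285 RPKM in Col-0 and 0.142 to 0.343 RPKM in hy5-215.

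The regulators of the nitrate response showed no such shift. Of 15 tested, 6 were higher, 1 was lower and none was called, with a median of 0.02 that changed sign, to -0.04, when the libraries were rescaled by the median of ratios. NLP7, the master regulator and a nitrate sensor, was the lower one, at 17.2, 16.1 and 16.1 RPKM against 14.1, 14.6 and 13.8 RPKM (-0.20 ± 0.06), but it did not pass without replicate 3 of hy5-215 (adjusted p = 0.052 by limma) or without replicate 1 of Col-0 (0.060). LBD39 (0.66), LBD37 (0.52) and HRS1 (0.42), which repress nitrate uptake or starvation genes, and TGA1 (0.41) were the largest of those that were higher, and HRS1 did not pass when any 1 of 5 of the 6 libraries was left out (0.061 to 0.20). Ammonium and amide genes went both ways. GLN1;2, a cytosolic glutamine synthetase, rose from 109, 89.4 and 112 RPKM to 284, 381 and 291 RPKM (1.61 ± 0.15), while the ammonium transporter gene AMT1;1 fell from 42.5, 35.4 and 37.1 RPKM to 22.9, 23.7 and 23.3 RPKM (-0.69 ± 0.09) and AMT1;2 rose by 0.83 ± 0.14. ASN1, asparagine synthetase, rose by 1.24 ± 0.40 with wide spread in both groups, and did not pass without replicate 2 of hy5-215 (0.050) or replicate 3 of Col-0 (0.069). In all, 8 of 12 were higher and 3 lower, with a median of 0.30.

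The aliphatic glucosinolate pathway, which makes methionine-derived defence compounds, was higher at every tested step. All 14 tested genes were higher and 11 were called, with a median of 3.00 against 0.04 over all genes. BCAT4, the aminotransferase that starts the chain elongation of methionine, was at 0.690, 0.288 and 0.387 RPKM in Col-0 and 23.4, 19.6 and 24.5 RPKM in hy5-215 (4.02 ± 0.14, 49.5-fold). CYP83A1, which oxidizes the aldoximes, went from 1.00, 1.03 and 0.679 RPKM to 27.5, 22.7 and 29.2 RPKM (3.85 ± 0.17). MAM3, a methylthioalkylmalate synthase, went from 6.86, 4.36 and 4.35 RPKM to 61.5, 56.4 and 66.8 RPKM (3.359 ± 0.19), and IMD1 of the same elongation cycle differed by 3.12 ± 0.15. In each the groups were far apart and the mutant libraries agreed closely. MYB28, the activator of the pathway, was at 4.11, 3.48 and 4.31 RPKM in Col-0 and 21.31, 16.98 and 23.4 RPKM in hy5-215 (2.11 ± 0.11), whereas its relatives MYB29 and MYB76 were at or near 0 in all 6 libraries. The smallest changes, singled out after the values were seen, were in SUR1 (0.54) and BCAT3 (0.32). The summed level of the 14 was 108 to 122 RPKM in Col-0 and 419 to 506 RPKM in hy5-215, and replicate 2 was the lowest mutant library for all 14, at a median of 873% of Col-0 against 1010% and 1089%. The list median was 3.099 with 12 called without that library, and 2.81 with 10 called without replicates 1 and 3.

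The tryptophan-derived indolic branch moved by small amounts. Of 14 tested genes 9 were higher and 1 was lower, with a median of 0.35 and 1 call. That was CYP81F2, which hydroxylates the indole ring, at 1.58, 1.41 and 2.24 RPKM in Col-0 and 11.01, 4.62 and 11.8 RPKM in hy5-215 (1.81 ± 0.23). MYB51, an activator of the branch, differed by 0.73 ± 0.16, CYP79B2 by 0.58 ± 0.14 and CYP81F4 by -0.72 ± 0.15, and MYB34, the main activator in roots, did not pass (-0.11 ± 0.14).

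**Figure D3:**
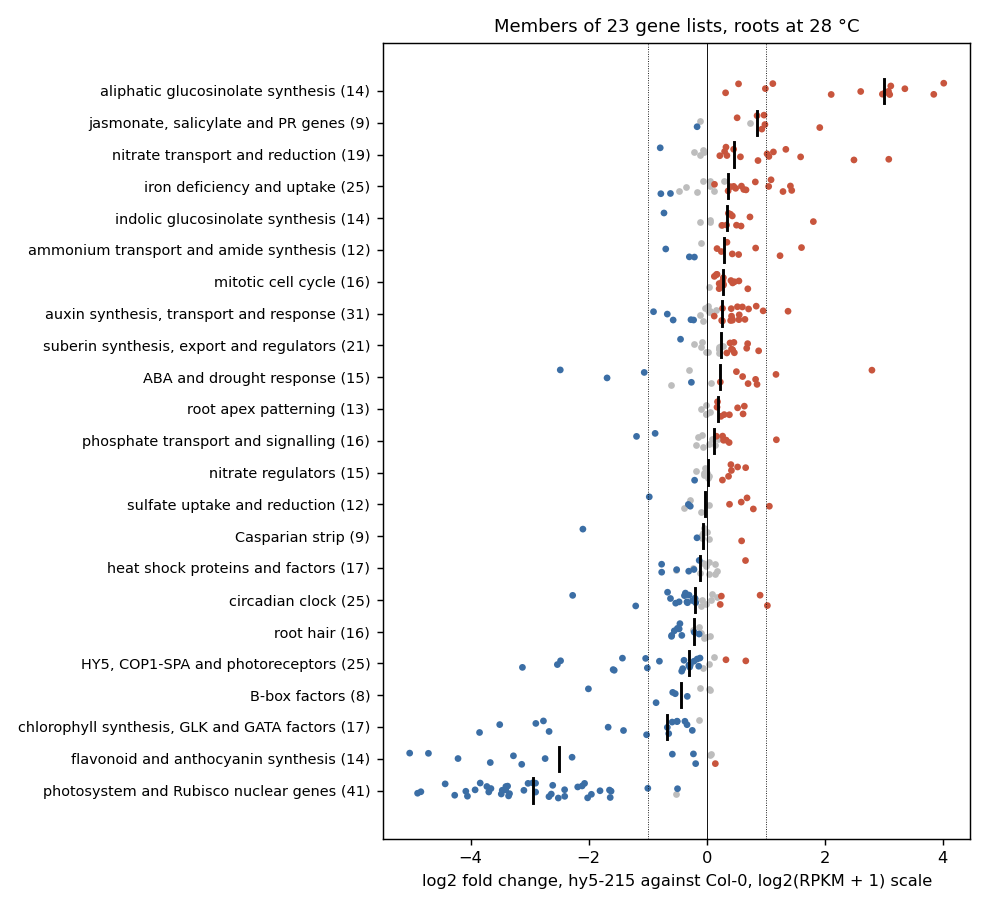
Log2 fold change of hy5-215 against Col-0 in roots at 28 °C for each tested member of the gene lists, with the number tested in brackets, red and blue for members higher and lower at an adjusted p under 0.05, grey for the others and a black bar at the median. Aliphatic glucosinolate genes lie to the right, with a median of 3.00, and flavonoid and photosystem genes to the left, with medians of -2.51 and -2.95, while the medians of most other lists lie within 1 of 0.

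Among other nutrients, iron genes were mostly higher. Of 25 tested, 14 were higher, 2 were lower and 5 were called, all higher, with a median of 0.36. The clade Ib factors that bind FIT rose together: BHLH38 from 7.36, 8.27 and 11.3 RPKM to 26.6, 23.2 and 27.6 RPKM (1.44 ± 0.20) and BHLH100 from 8.14, 8.35 and 11.98 RPKM to 27.5, 23.2 and 29.8 RPKM (1.42 ± 0.21). F6'H1, which makes the precursor of secreted coumarins, rose by 1.29 ± 0.14 and NAS2, a nicotianamine synthase, by 1.09 ± 0.29. FIT itself and the iron transporter gene IRT1 did not pass, with -0.17 ± 0.11 and 0.29 ± 0.22. The 2 lower members, FER1 (-0.78) and FER4 (-0.61), encode the iron store ferritin. The 5 calls became 3 without replicate 3 of hy5-215. With replicates 1 and 3 left out, NAS2 differed by 0.45.

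Phosphate and sulfate genes went in both directions. Of 16 tested phosphate genes 6 were higher and 2 lower, with a median of 0.12. LPR1, a ferroxidase of the root tip response to low phosphate, fell from 3.35, 2.76 and 3.27 RPKM to 0.794, 0.846 and 0.781 RPKM (-1.19 ± 0.07), and SQD2, which makes sulfolipids in place of phospholipids, fell by 0.87 ± 0.04. PHO1;H1, a phosphate exporter, rose from 0.552, 0.642 and 0.825 RPKM to 2.87, 2.59 and 2.91 RPKM (1.18 ± 0.07), and the uptake transporter gene PHT1;1 by 0.38 ± 0.10. PHR1, the central regulator, did not pass (0.09 ± 0.05). Of 12 sulfate genes 5 were higher and 3 lower, with SULTR2;1 (1.06), APS1 (0.79) and APS3 (0.68) at one end and the sulfur deficiency gene SDI1 (-0.97) at the other.

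Auxin genes were higher more often than lower. Of 31 tested 18 were higher and 5 lower, with a median of 0.27 and 1 call; without replicate 3 of hy5-215 the 5 became 3 and 2 were called. The called gene was LBD29, a factor that starts lateral roots, at 1.13, 1.097 and 1.39 RPKM in Col-0 and 4.05, 5.96 and 4.34 RPKM in hy5-215 (1.38 ± 0.11), and LBD16, which acts with it, rose from 3.96, 4.70 and 4.63 RPKM to 8.07, 10.2 and 8.005 RPKM (0.84 ± 0.09). GH3.5, which conjugates auxin, rose by 0.96 ± 0.09. IAA17, a repressor of auxin response, was the largest fall, from 58.8, 52.8 and 60.3 RPKM to 30.7, 28.0 and 32.1 RPKM (-0.90 ± 0.07). The auxin synthesis gene YUC8 did not differ beyond its error (0.03 ± 0.11).

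Mitotic genes were higher by small amounts. Of 16 tested genes of the mitotic cell cycle 15 were higher and none lower, with a median of 0.28 and none called, and the groups did not overlap in 15. CYCD3;3, a D-type cyclin, had the largest change, from 12.3, 11.3 and 12.9 RPKM to 20.7, 20.4 and 19.9 RPKM (0.70 ± 0.08), followed by CYCB2;2 (0.55), CYCB2;4 (0.47) and CDKB1;1 (0.44). The count of higher members was 13 without replicate 1 or replicate 3 of hy5-215 and 14 without replicate 2. Of 13 root apex factors 8 were higher and none lower, with a median of 0.18. Without replicate 3 of hy5-215, 5 were higher. Among genes averaging 5 RPKM or more, 2 of 6 were higher, with a median of -0.01. BBM (0.64) and PLT3 (0.62) of the meristem, WOX5 (0.52) of the quiescent centre and FEZ (0.39) of the root cap led them, and SHR, a radial patterning factor, did not differ beyond its error (-0.01 ± 0.06).

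Root hair genes were lower in part, with 9 of 16 lower, none higher, none called and a median of -0.22. EXPA7, a hair-specific expansin, fell from 26.3, 25.8 and 30.2 RPKM to 17.8, 18.8 and 16.9 RPKM (-0.59 ± 0.08), with RSL2 (-0.59), RSL1 (-0.55) and COBL9 (-0.50) close to it, while RHD6, which acts before the RSL genes, differed by -0.13 ± 0.04 and did not pass without replicate 1 of hy5-215 (0.13) or replicate 3 of Col-0 (0.11). The Casparian strip of the endodermis was little changed, with 1 of 9 genes higher and 2 lower. The exception was CASP5, at 19.3, 18.6 and 16.6 RPKM in Col-0 and 4.11, 2.77 and 3.63 RPKM in hy5-215 (-2.10 ± 0.14). CASP1 did not pass (-0.07 ± 0.05). CASP4 differed by -0.16 and did not pass when any 1 of 4 libraries was left out. MYB36, the activator of the CASP genes, was higher by 0.59 ± 0.05. Of 21 suberin genes 9 were higher and 1 lower, with a median of 0.25. ABCG1 (0.88), a transporter, FAR1 (AT5G22500, 0.70) and FAR4 (0.47), fatty acyl reductases, and MYB93 (0.68) led them. This list depended on the library that stood apart: 13 were higher without replicate 2 of hy5-215, and the median was -0.01 without replicates 1 and 3.

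The clock genes were lower more often than higher, with 14 of 25 lower, 4 higher and a median of -0.20. ELF4, a member of the evening complex, carried the largest change, from 119, 128 and 119 RPKM to 26.6, 21.199 and 25.9 RPKM (-2.27 ± 0.08). RVE7 fell by 1.201 ± 0.22, and LNK3 and CDF1 (AT5G62430, a cycling Dof factor) rose by 1.03 ± 0.11 and 0.91 ± 0.09, while CCA1 of the morning loop did not pass (0.10 ± 0.08). The heat shock genes hardly differed in these warm-grown roots: 1 of 17 was higher, 6 were lower and none was called, with a median of -0.11 that became 0.02 with replicates 1 and 3 of hy5-215 left out. The 6 became 2 without replicate 3 of hy5-215 and 3 without its replicate 1 or without replicate 2 of Col-0. HSFA7A (-0.76), HSA32 (-0.76) and HSFB2A (-0.51) were lower and HSP23.6-MITO (0.66) was higher, but HSFB2A did not pass without replicate 2 of Col-0 (-0.29, adjusted p = 0.13) or replicate 3 of hy5-215 (0.077).

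Genes of abscisic acid and drought split. KIN1, a cold and drought gene, fell from 19.2, 19.7 and 29.9 RPKM to 3.05, 2.86 and 3.75 RPKM (-2.48 ± 0.22) and RD29A, another, from 5.66, 6.03 and 6.63 RPKM to 1.47, 0.866 and 1.32 RPKM (-1.69 ± 0.20). In the other direction, the lipid transfer protein gene LTP3 rose from 5.59, 5.59 and 6.24 RPKM to 44.4, 49.0 and 45.9 RPKM (2.80 ± 0.16) and HB-7 by 1.18 ± 0.13. In all, 8 of 15 were higher and 4 lower, so the list had no single direction. Of 9 tested genes of jasmonate, salicylate and defence, 6 were higher and 1 lower. JAZ10, a jasmonate-induced repressor, rose from 0.767, 0.493 and 0.764 RPKM to 5.06, 6.83 and 4.28 RPKM (1.92 ± 0.11), and JAZ1 (0.97), VSP2 (0.99) and WRKY70 (0.94) were higher by less. VSP2 did not pass when any 1 of 4 libraries was left out (0.11 to 0.14) or after median-of-ratios rescaling (0.054). The 1 call became 3 without replicate 3 of hy5-215 and without replicate 2 or 3 of Col-0. PR1 and PDF1.2, markers of salicylate and of jasmonate with ethylene, were at 0 in all 6 libraries.

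Most of the 12 largest rises were in genes that the reference does not name. GRP5, a glycine-rich cell wall protein, was at 0.719, 1.07 and 1.196 RPKM in Col-0 and 42.7, 40.1 and 41.2 RPKM in hy5-215 (4.42 ± 0.30). PDF1, a gene of the shoot epidermis, went from 2.54, 1.96 and 3.12 RPKM to 33.4, 35.2 and 34.8 RPKM (3.34 ± 0.15), and CDEF1, a cutinase, from 2.4005, 2.6004 and 3.14 RPKM to 39.5, 31.6 and 39.5 RPKM (3.35 ± 0.17). The groups were far apart and the mutant libraries close together. ATML1, the activator of PDF1 in the shoot epidermis, was below the filter at 0.0632 to 0.0857 RPKM in Col-0 and 0.671 to 0.775 RPKM in hy5-215. AT2G41480 (PRX25), a peroxidase, rose from 2.16, 1.76 and 3.06 RPKM to 57.7, 69.7 and 59.1 RPKM (4.26 ± 0.15). Of other genes without a name in the reference used here, AT3G05950 rose by 4.86 ± 0.13 and AT1G49570 by 4.40 ± 0.17. AT2G36255 rose by 4.23 ± 0.12, AT1G34047 by 4.101 ± 0.30 and AT5G01870 by 4.02 ± 0.21. What these genes encode was not looked up. Among the 12 largest falls, AT3G52740 was the only gene without a name in that reference. It went from 23.5, 25.7 and 23.3 RPKM to 0.864, 0.289 and 0.668 RPKM (-3.98 ± 0.11).

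The 4 other genes of the 12 largest rises were close to all or nothing. AT3G25719 was at 0.197, 0 and 0.191 RPKM in Col-0 and 77.5, 98.8 and 79.5 RPKM in hy5-215, the largest of the named rises (6.25 ± 0.15). AT4G04265, AT1G47265 and OFP9, a member of the ovate family of repressors, had no reads in any Col-0 root library at 28 °C and 33.96 to 36.8, 30.7 to 31.2 and 20.2 to 21.8 RPKM in hy5-215. Set against a floor of 3 reads over the group, they were at least 1634-fold, 1172-fold and 1766-fold higher. A rule made after these values were seen took all genes with at least 1 RPKM in each of the 12 hy5-215 libraries, roots and shoots at both temperatures, and at least 10 times the highest of the 24 other libraries. It gave 13 genes, these 4 among them, and none the other way round. They lie on chromosome 1 (6 genes), 2 (1), 3 (3) and 4 (3), none on chromosome 5, which carries HY5. In 2 of the 13 the 24 other libraries held 5 reads or fewer in all. A difference of the mutant line other than the hy5 allele cannot be told apart from an effect of HY5 in these genes, since 1 line was sampled.

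**Figure D4:**
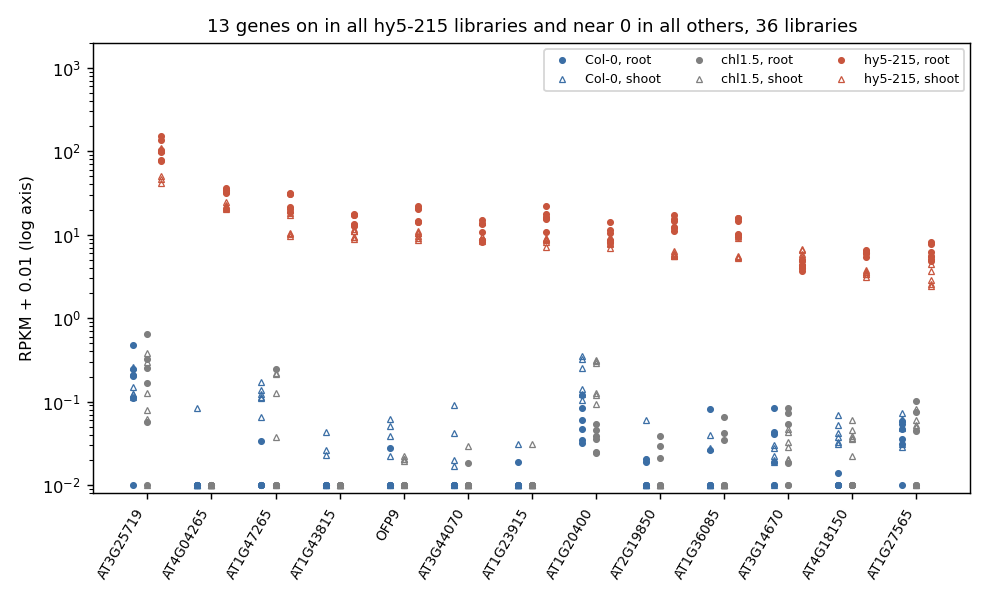
RPKM + 0.01 on a log axis for the 13 genes in each of the 36 libraries, with circles for roots and triangles for shoots, blue for Col-0, grey for chl1.5 and red for hy5-215. Every hy5-215 library lies at least 10 times above every other library, in both organs and at both temperatures.

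The genotype effect was compared with that in roots at 21 °C, to see which part of it goes with warmth. At 21 °C, 541 genes were called (3.05%), 231 higher (1.3%) and 310 lower (1.75%) in hy5-215, and 43.6% of genes passed without the limit on the fold, 24.7% higher and 18.9% lower. Of the 394 genes called higher at 28 °C, 159 were also called higher at 21 °C, which is 40.4% of the 28 °C list and 68.8% of the 21 °C list, and of the 427 called lower 258 were, or 60.4% and 83.2%. The difference between the effects itself passed for 3614 genes (20.4%), 1765 positive and 1849 negative. NRT1.1 was among the genes whose effects differed: at 21 °C it was at 70.9, 78.2 and 78.0 RPKM in Col-0 and 74.8, 73.9 and 98.7 RPKM in hy5-215, overlapping groups with a difference of 0.11 ± 0.12 and an adjusted p of 0.50, and the effects differed by 1.23 ± 0.18 (adjusted p = 0.00021). In Col-0 the level at 28 °C was 2.48 log2 units below that at 21 °C, and in hy5-215 it was 1.25 below. HY5 transcript in Col-0 was at 24.1 to 27.04 RPKM at 21 °C, below its level at 28 °C, and its genotype effect was larger at 28 °C by -0.88 ± 0.13.

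The lists differed in how far they depended on temperature. All 14 aliphatic glucosinolate genes had a larger effect at 28 °C, with a median of 3.00 against 0.79, and the difference was most positive among genes of high level for CYP83A1 (2.61 ± 0.24) and MAM3 (2.58 ± 0.27). In CYP83A1 the mutant went from 10.6 to 11.7 RPKM at 21 °C to 22.7 to 29.2 RPKM, while Col-0 went from 3.31 to 5.61 RPKM to 0.679 to 1.03 RPKM, so the genotypes moved apart from both sides. The photosynthesis genes had a median of -1.90 at 21 °C, and the difference was negative for 32 of the 41 and positive for none. In LHCB1.3, the most negative of them among the genes named by the difference (-2.28 ± 0.64), the mutant libraries overlapped between temperatures, at 1.92 to 4.32 and 0.809 to 8.12 RPKM, and the Col-0 libraries did not, at 14.2 to 28.5 and 112 to 168 RPKM. The flavonoid genes had a median of -2.07 at 21 °C, and 2 differences were positive and 3 negative. For CHS the effect was -6.19 at 21 °C, not distinguishable from that at 28 °C (difference 1.16 ± 0.90, adjusted p = 0.39).

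Among the genes with the most negative differences, AT4G07820 changed direction, with the genotypes apart at both temperatures. For AT1G19530 the groups overlapped at 21 °C and were apart at 28 °C, with the mutant lower. AT4G07820 was at 29.5 to 31.7 RPKM in Col-0 and 50.7 to 56.0 RPKM in hy5-215 at 21 °C (0.80), and at 412, 333 and 326 RPKM in Col-0 and 130, 106 and 122 RPKM in hy5-215 at 28 °C (-1.57), a difference of -2.37 ± 0.18. AT4G33720 was 3.42 log2 units higher in the mutant at 21 °C and near 0 in both genotypes at 28 °C, at up to 0.532 and 0.917 RPKM in overlapping groups. AT1G73120 was lower at both temperatures and more so at 28 °C, at 25.3, 28.6 and 19.1 RPKM against 2.47, 1.54 and 1.93 RPKM (-3.08 ± 0.17). The differences were positive for 9.95% and negative for 10.4% of all genes. They were positive for 6 of 9 jasmonate genes and negative for none, for 13 and 3 of 31 auxin genes, for 9 and 1 of 14 indolic glucosinolate genes and for 9 and 0 of 21 suberin genes. The other way round, 12 of 25 clock genes and 5 of 8 B-box genes had negative differences, and 1 and 0 had positive ones. The nitrate regulators had none in either direction.

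**Figure D5:**
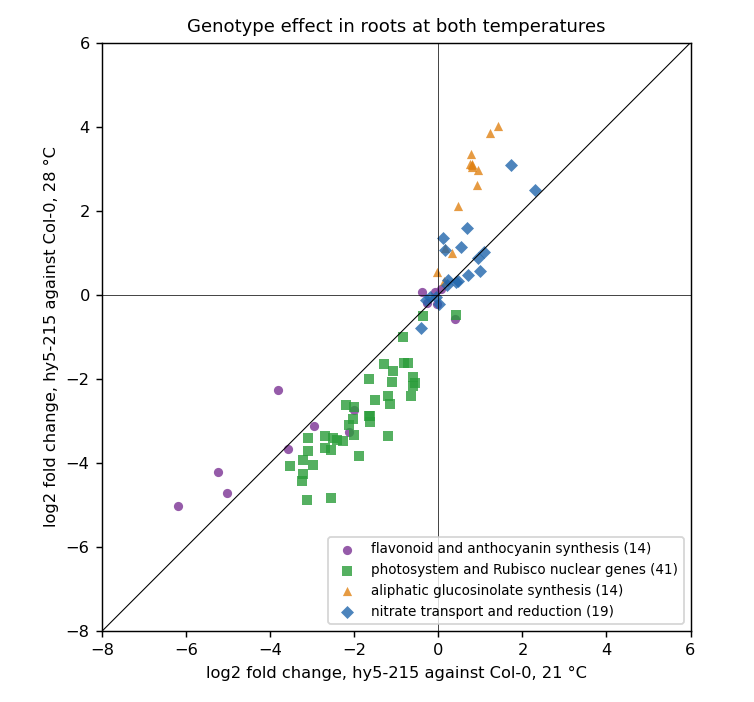
Log2 fold change of hy5-215 against Col-0 in roots at 21 °C on the horizontal axis and at 28 °C on the vertical axis for the tested genes of 4 lists, with the line of equal effects. Aliphatic glucosinolate genes lie above the line and photosystem genes mostly below it, farther from 0 at 28 °C, while flavonoid genes lie on both sides.

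The effect in roots was set against that in shoots of both genotypes at 28 °C. In shoots 269 of 18173 genes were called (1.48%), 220 higher (1.21%) and 49 lower (0.27%), so falls were the smaller group there, while 48.3% passed without the limit on the fold, 22% higher and 26.2% lower. The difference between organs passed for 10287 genes (56.6%), 5818 positive and 4469 negative, a split that became 4479 and 5887 when the libraries were rescaled by the median of ratios. HYH, at 18.5 to 20.6 RPKM in Col-0 shoots and 14.5 to 17.1 RPKM in hy5-215 shoots, differed by -0.27 there and by -2.85 ± 0.13 more in roots. Photosynthesis genes were little affected in shoots, with 5 of 41 lower, none higher and a median of -0.17. RBCS1A had a mean of 11321 RPKM in Col-0 shoots and 11474 RPKM in hy5-215 shoots (0.02), and the difference between organs was -4.92 ± 0.37. LHB1B2 and LHCB1.3 had differences of -5.76 ± 0.62 and -4.54 ± 0.48. CHS and F3H were also close to equal in shoots, at -0.21 and -0.11, with differences of -4.82 ± 0.67 and -4.60 ± 0.36.

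The most positive differences were in genes that shoots of both genotypes hold or lack. GRP5 had a mean of 118 RPKM in Col-0 shoots and 123 RPKM in mutant shoots (difference between organs 4.35 ± 0.33), and PDF1 one of 178 against 134 RPKM (3.75 ± 0.17 with the shoot effect at -0.42). AT1G34047 was at or under 0.152 RPKM in these shoots (3.97 ± 0.31). AT5G01870 and CDEF1 were at a few RPKM in shoots of both genotypes, with differences of 4.16 ± 0.23 and 3.45 ± 0.18. The aliphatic glucosinolate genes were higher in shoots as well, 14 of 14, with a median of 0.61. NRT1.1 was 0.32 ± 0.10 higher in mutant shoots, at means of 7.30 and 9.38 RPKM, and the effect was larger in roots by 1.02 ± 0.14.

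Roots of chl1.5 at 28 °C share the Col-0 controls with the comparison above, so their values are given side by side only. In chl1.5, 19 genes were called (0.107%), 9 higher (0.0507%) and 10 lower (0.0564%), and 1673 passed without the limit on the fold (9.43%), 6.68% higher and 2.75% lower. NRT1.1 was at 0.0115, 0 and 0.00715 RPKM in the chl1.5 libraries. HY5 was at 41.2, 35.2 and 39.8 RPKM there (-0.12 ± 0.09, adjusted p = 0.40). CHS was at 275 to 317 RPKM, LHB1B2 at 391 to 502 RPKM and BCAT4 at 0.443 to 0.856 RPKM in chl1.5, all within or near the Col-0 range and none passing the test. The list medians of chl1.5 were -0.32 for the photosynthesis genes, 0.03 for the flavonoid genes and 0.07 for the aliphatic glucosinolate genes, against -2.95, -2.51 and 3.00 in hy5-215. NIA2 was lower in chl1.5 (-0.81, adjusted p = 0.0030) and higher in hy5-215 (1.59), and NRT1.8 likewise (-1.06 and 2.496).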

How the data were processed

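RNA of pooled roots was sequenced on an Illumina NovaSeq. The submitters' processing notes name STAR 2.7.0a, edgeR 3.36.0 and the TAIR10 build, and the matrix that the authors deposited holds RPKM per gene. Columns were matched to samples by their labels. With the gene spans of TAIR10.1, introns included, 99.98% of the values above 0 were whole reads (tolerance 0.01), which gave the depth and the floors. Spans that include introns lower the RPKM of intron-rich genes alike in all libraries.

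log2(RPKM + 1) of the 18 root libraries went into linear models (R 4.3.3, limma 3.58.1) with 6 group means and eBayes with a trend, for genes averaging 1 RPKM or more, with Benjamini-Hochberg adjustment over all genes tested. Differences between organs came from 1 fit of the 36 libraries in 12 groups. RPKM are not counts, so the edgeR test was not repeated, and limma voom on the recovered reads was an alternative. The code was tested on simulated data. Python 3.11.15 drew the figures.

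The 12 largest rises and 12 largest falls averaging 10 RPKM or more without overlap were named, the 5 most positive and negative differences, up to 4 members of each list and its central genes. HY5, HYH and NRT1.1 were always named. Members and lists were chosen with earlier results of these data known. Alternatives were other pseudocounts, filters, scalings and tests, the replicate block, each replicate left out and, added later, replicates 1 and 3 of hy5-215 left out together. The replicates were independent pools, and equal numbers were not taken as pairs.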

Additional observations from a re-analysis of the deposited data

Results flagged for a closer look

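The genotype effect differed between temperatures or organs, by a limma test of the difference itself, in the following genes. The effect at 28 °C minus that at 21 °C in roots was most negative for AT4G33720 (-2.95), AT4G07820 (-2.37), AT1G73120 (-2.33), LHCB1.3 (-2.28) and AT1G19530 (-2.11). It was most positive for CYP83A1 (2.61), MAM3 (2.58), AT2G41480 (2.46), LTP3 (2.44) and CDEF1 (2.37). The value for AT4G33720 comes from a gene near 0 in both genotypes at 28 °C, and that for LHCB1.3 rests on mutant libraries that spread from 0.809 to 8.12 RPKM. AT1G19530 was at 99.8, 146 and 90.7 RPKM in Col-0 and 37.3, 59.6 and 22.8 RPKM in hy5-215 at 28 °C, against 4.82 to 9.88 and 7.87 to 12.05 RPKM at 21 °C.

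The effect in roots minus that in shoots at 28 °C was most negative for LHB1B2 (-5.76), RBCS1A (-4.92), CHS (-4.82), F3H (-4.60) and LHCB1.3 (-4.54). It was most positive for GRP5 (4.35), AT5G01870 (4.16), AT1G34047 (3.97), PDF1 (3.75) and CDEF1 (3.45). CDEF1 appears in both comparisons: at 21 °C its root libraries were at 10.005 to 11.04 RPKM in Col-0 and 19.98 to 23.4 RPKM in hy5-215. These genes are the extremes of 3614 and 10287 genes whose differences passed.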

How the results depend on the processing

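The 821 calls at 28 °C became 466 among genes averaging 5 RPKM or more and 9756 with any fold. Under the other settings they stayed within 1.5 times, from 792 to 864 when 1 replicate was left out, 1160 with 0.1 as pseudocount and 1196 by limma voom on whole reads. The 3614 differences from 21 °C became 242 with a fold beyond 1, and 2607 to 4006 with 1 replicate left out, and the 10287 differences between organs became 861 and 9531 to 10289. With replicates 1 and 3 of hy5-215 left out together, an alternative chosen after seeing the data, 842 genes were called, 732 of them among the 821, and 1524 differed from 21 °C; the lone library is then assumed to vary like the other groups. No named gene reversed. AT4G33720 no longer differed from 21 °C with a pseudocount of 0.1 (adjusted p = 0.14) or with limma voom (0.94), LHCB1.3 with a pseudocount of 0.1 (0.056) or without replicate 1 of hy5-215 or replicate 3 of Col-0 at 21 °C (0.052 and 0.051), AT1G19530 without replicates 1 and 3 (0.16), and AT1G34047 no longer differed between organs with limma voom (0.15). The cause was not tested.

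With the replicate number as a block, 821 genes were called, 3435 differed from 21 °C and 10265 between organs. Residuals of equally numbered libraries correlated by -0.02, 0.16 and 0.25, and not every library correlated best with its own number. The depth limits genes near 0: a gene of 1 kilobase at 1 RPKM had about 61 to 74 reads a library.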

Other observations

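HOL2, a methyltransferase gene, was singled out after its values were seen, among 15 genes of at least 20 RPKM in Col-0 whose lowest mutant library held under 2% of that level. It was at 32.3, 42.2 and 26.03 RPKM in Col-0 at 28 °C, against 1.11, 3.75 and 0.502 RPKM in hy5-215, with replicate 2 the highest. At 21 °C it was at 0.367 to 0.676 RPKM in Col-0 and 0.360 to 0.508 RPKM in hy5-215. The chl1.5 roots held 27.7, 14.3 and 34.6 RPKM at 28 °C.

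Replicate 2 of hy5-215 was the lowest of the 3 mutant libraries for 10 of 14 flavonoid genes, 36 of 41 photosynthesis genes and 14 of 14 aliphatic glucosinolate genes, but for 9 of 17 chlorophyll genes. The medians of the flavonoid genes were 12.7%, 6.80% and 16.2% of the Col-0 mean in replicates 1, 2 and 3, and those of the photosynthesis genes 8.08%, 4.57% and 9.41%. For the 15 genes, which were chosen by their lowest library, the 3 mutant libraries had medians of 4.42%, 0.986% and 5.31% at 28 °C and of 5.78%, 4.62% and 2.96% at 21 °C. Wild-type RNA in replicates 1 and 3 was not tested.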
